A study of Mus musculus with 12 samples.

Results

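The 10 genes described here encode parts of 3 related secreted-factor systems: the transforming growth factor beta (TGF-beta) ligands Tgfb1, Tgfb2 and Tgfb3, their receptors Tgfbr1 and Tgfbr2, the activin A subunit Inhba and its inhibitor Fst, the stress-induced factor Gdf15, and the intracellular mediators Smad3 and Smad7. They were chosen by symbol from a table of 55421 Ensembl genes, all 10 symbols matched a single row each, and all 10 were among the 18108 genes that passed the filter on low counts. RNA came from MOC2, a mouse oral squamous cell carcinoma line, in cells labelled able to release extracellular vesicles (EV-proficient, derivative MOC2-25) or with that release blocked genetically (EV-deficient, derivative MOC2-27). Each derivative was sampled as a control, with DMSO as the labelled treatment, and after 48 h in 600 nM paclitaxel, a drug that stabilises microtubules and was given here to bring on senescence. The 4 groups held 3 libraries each, all grown in a serum-containing medium with hydrocortisone, cholera toxin, transferrin, insulin, triiodothyronine and epidermal growth factor. The series asks what vesicles add to the signals that senescent tumour cells send out.

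TGF-beta proteins are secreted bound to a latency peptide and, once released from it, bind the type II receptor TGFBR2, which then recruits and phosphorylates the type I receptor TGFBR1. The activated type I receptor phosphorylates SMAD2 and SMAD3, which enter the nucleus with SMAD4, and SMAD7 is a feedback inhibitor that acts on the receptor. Activin A, a dimer of the Inhba product, uses other receptors but the same SMAD2 and SMAD3, and follistatin, the product of Fst, binds activin and keeps it from its receptors. GDF15 is a distant relative of these ligands that is induced by cell stress and signals through GFRAL, a receptor of the hindbrain. TGF-beta and activin A are known components of the secretions of senescent cells, and TGF-beta restrains the proliferation of epithelial cells.

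Library totals lay between 23263472 and 62955757 counts, and 3 counts corresponded to 0.0477 to 0.129 CPM (counts per 1000000, here of the unscaled library total and below of the scaled one). The labels do not say that the 3 libraries of a group were separate cultures, so p-values measure only the spread between these libraries, which may be technical. Of the 7 keratinocyte markers, Krt8, Krt18, Epcam and Cdh1 were abundant in every library. The basal keratin Krt14 ran from 77.4 to 730.3 CPM, with group means of 191 in EV-proficient DMSO, 681 in EV-deficient DMSO, 191 in EV-proficient paclitaxel and 80.0 in EV-deficient paclitaxel libraries, whereas the basal-cell markers Krt5 and Trp63 did not exceed 0.171 and 0.180 CPM. The keratinocyte list summed to 4873 to 5488 CPM in the DMSO libraries and to 3019 to 3701 CPM in the paclitaxel libraries. Summed markers of fibroblasts (5 genes) lay at 1.44 to 3.53 CPM in DMSO and 5.26 to 8.63 under paclitaxel, and those of endothelial cells (3 genes) at 1.69 to 2.49 and 2.55 to 4.26 CPM. The leukocyte list (6 genes) summed to 7.50 to 8.40 CPM in EV-proficient DMSO, 20.9 to 21.5 in EV-deficient DMSO, 39.8 to 44.5 in EV-proficient paclitaxel and 26.5 to 47.1 CPM in EV-deficient paclitaxel libraries. Nearly all of that sum was Cd68 and Csf1r, while Cd3e, Lyz2 and Adgre1 stayed at or under 0.151 CPM, and the part of these lists in the results was not tested. Each EV label was carried by 1 derivative, so the label and any other difference between the derivatives cannot be told apart. The table also held a row named dngfr that followed neither label. It lay at 5.73 to 12.2 CPM in EV-proficient DMSO and 9.63 to 12.4 in EV-deficient paclitaxel libraries, but at 1.89 to 2.54 in EV-deficient DMSO and 2.47 to 3.76 CPM in EV-proficient paclitaxel libraries. The second principal component (16.4% of the variance) paired the groups in the same way, with the EV-proficient DMSO libraries beside the EV-deficient paclitaxel ones. Cells that responded in opposite ways and EV labels exchanged within one treatment in the deposit cannot be told apart from these values. If the labels were exchanged, every drug effect within a label would set treated libraries of one derivative against controls of the other, every interaction would change with it, and the label difference under one treatment would have the opposite sign. Mean Tgfb1, for example, would run from 52.5 to 72.2 CPM in one derivative and from 25.5 to 62.4 in the other, in place of 52.5 to 62.4 and 25.5 to 72.2 CPM. EV labels are used below as deposited. The paclitaxel effect averaged over both labels does not depend on how the labels are assigned within a treatment, and is given for each member and each gene list beside the effects within the labels.

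The stretches just upstream of 3 of these genes are shown because they stand for the patterns below: Tgfb1, whose response differed most between the derivatives among the called members, Smad3, which rose with the drug in both, and Inhba, which fell in both. Each is the 250 bases before the annotated start (RefSeq, GRCm38.p6), read on the gene's strand, at chr7:25686752-25687001 (plus strand) for Tgfb1, chr9:63757995-63758244 (minus strand) for Smad3 and chr13:16011601-16011850 (plus strand) for Inhba. Capitals mark matches to a GC box (GGGCGG, shown as CCGCCC where it lies on the other strand) and to a TATA box (TATAAA).
Tgfb1: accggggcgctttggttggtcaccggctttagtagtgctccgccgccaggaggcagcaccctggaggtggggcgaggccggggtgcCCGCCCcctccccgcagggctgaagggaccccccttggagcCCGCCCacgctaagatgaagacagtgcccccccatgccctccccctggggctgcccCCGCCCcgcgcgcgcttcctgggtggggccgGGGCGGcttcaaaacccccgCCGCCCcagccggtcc
Smad3: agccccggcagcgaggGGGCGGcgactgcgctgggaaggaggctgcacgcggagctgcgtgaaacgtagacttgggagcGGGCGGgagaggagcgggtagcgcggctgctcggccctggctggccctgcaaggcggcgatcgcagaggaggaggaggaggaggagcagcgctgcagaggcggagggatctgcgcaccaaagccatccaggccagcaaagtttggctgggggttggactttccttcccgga
Inhba: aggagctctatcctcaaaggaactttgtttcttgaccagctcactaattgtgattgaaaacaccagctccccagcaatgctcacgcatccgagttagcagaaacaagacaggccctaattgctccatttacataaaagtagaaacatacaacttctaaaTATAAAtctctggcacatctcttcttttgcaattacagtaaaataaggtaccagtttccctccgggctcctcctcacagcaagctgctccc
The Tgfb1 stretch held 5 GC boxes and the Smad3 stretch 2, whereas the Inhba stretch held none and had 1 match to the TATA box letters, 91 bases before the annotated start. Of 32851 promoters of the same length, 32.7% held a GC box and 12.4% a TATA box on either strand. Neither the core of the SMAD-binding element (CAGAC, in 42.2% of promoters) nor an AP-1 site (TGANTCA, in 6.75%) occurred in these 3 windows, which says only that those letters are not there. The SMAD-binding core did occur in at least 1 window each of Tgfb2, Tgfbr1, Tgfbr2 and Gdf15, which are not shown. Of the 10 genes, 7 had an entry among the promoter sequences, with 9 starts in all. Tgfb3, Fst and Smad7 are the other 3.

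Levels were compared between the genes as CPM per kilobase of exon. In DMSO, Inhba (46.1 in EV-proficient, 56.6 in EV-deficient libraries) and Tgfbr2 (45.4 and 43.3) stood highest, and their libraries overlapped in the EV-proficient group and not in the EV-deficient one. Smad3 followed at 23.6 and 25.8 CPM per kb. Under paclitaxel Tgfbr2 (48.2 and 39.5) and Smad3 (47.7 and 39.0 CPM per kb) led with overlapping libraries, and Inhba stood below both at 31.9 and 25.6. Tgfb1 lay at 10.4 and 5.05 CPM per kb in DMSO and at 12.4 and 14.3 under paclitaxel. Tgfbr1, Smad7 and Fst ranged from 2.81 to 10.9 CPM per kb over the 4 groups. Tgfb2 and Tgfb3 were minor ligand transcripts, at 1.05 to 4.38 CPM per kb. Gdf15 was lowest in every group, at 0.0386 to 0.220 CPM per kb.

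**Figure D1:**
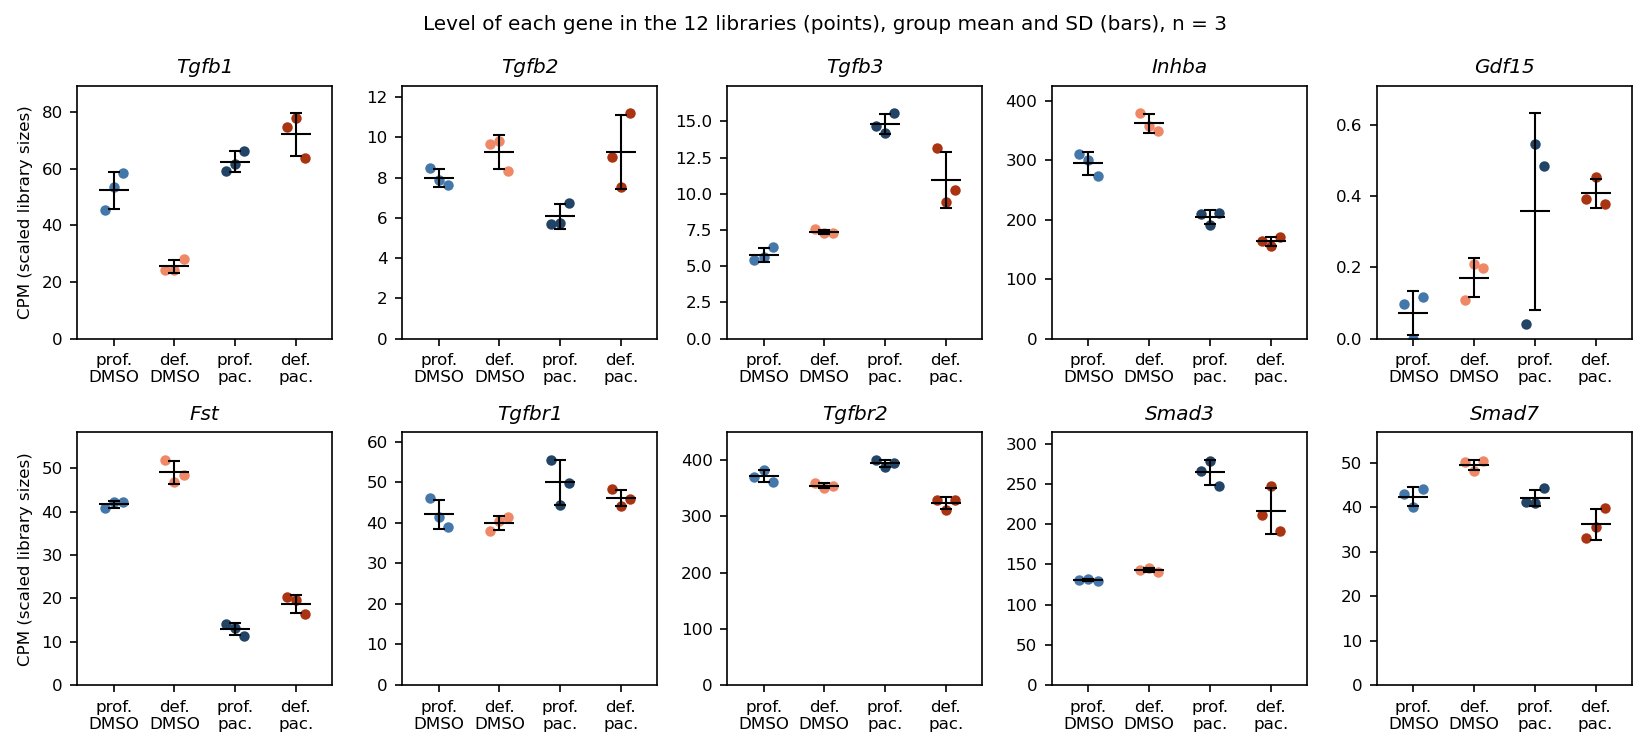
CPM of each of the 10 genes (y axis, from 0, own scale per gene) in the 12 libraries (points) by group (x axis: EV-proficient or EV-deficient, DMSO or paclitaxel), with the group mean and SD (bars, n = 3). Fst and Inhba drop and Smad3 and Tgfb3 climb from DMSO to paclitaxel in both derivatives, Tgfb1 is lowest in EV-deficient DMSO libraries at 24.1 to 28.1 CPM, and 1 paclitaxel library of Gdf15 lies at 0.0395 CPM.

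Paclitaxel was compared with DMSO within each derivative. Gdf15 passed the filter on low counts only through its paclitaxel libraries, so it is described below and left out of these counts, which are over the other 9 members. In the cells labelled EV-proficient, 4 members were higher (Tgfb1, Tgfb3, Tgfbr1, Smad3) and 3 lower (Tgfb2, Inhba, Fst) at an edgeR adjusted p under 0.05. In the cells labelled EV-deficient, the same 4 were higher and 3 were lower (Inhba, Fst, Smad7), and Tgfbr2 was called at -0.13 but changed sign with upper-quartile scaling (0.05). Of all tested genes 58.2% were called in the first comparison (31.1% higher, 27.1% lower) and 62.9% in the second (32.4% higher, 30.5% lower), so 7 and 8 of 9 members called is not far above the background. Without EV-proficient paclitaxel replicate 3, 5 were called in the first comparison. The 4 genes Tgfb1, Tgfb3, Tgfbr1 and Smad3 rose in both derivatives, as 18.9% of all tested genes did, and Inhba and Fst fell in both, as 18.5% did. Of all tested genes, 2897 likewise did not reach the filter's level (0.209 CPM of the library total) in 3 libraries of each treatment, and without them 62.6% and 66.2% were called. The median log2 fold change of the 9 members was 0.09 and 0.00, against -0.01 and -0.03 for all genes counted in the same way. In bulk RNA, a change in the number of cells that express a gene and a change in RNA per cell cannot be told apart. Averaged over the labels, 4 of the 9 were higher (Tgfb1, Tgfb3, Tgfbr1, Smad3) and 3 lower (Inhba, Fst, Smad7), with 68.4% of all genes called (37.1% higher, 31.3% lower). Without the same 2897 genes, 71.2% were called (34.9% higher, 36.2% lower). Libraries of the treated and untreated groups did not overlap for 7 of the 9 members in the EV-proficient cells (62.3% of all tested genes). In the EV-deficient cells only Tgfb2 of the 9 overlapped, where 68.7% of all tested genes did not overlap.

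**Figure D2:**
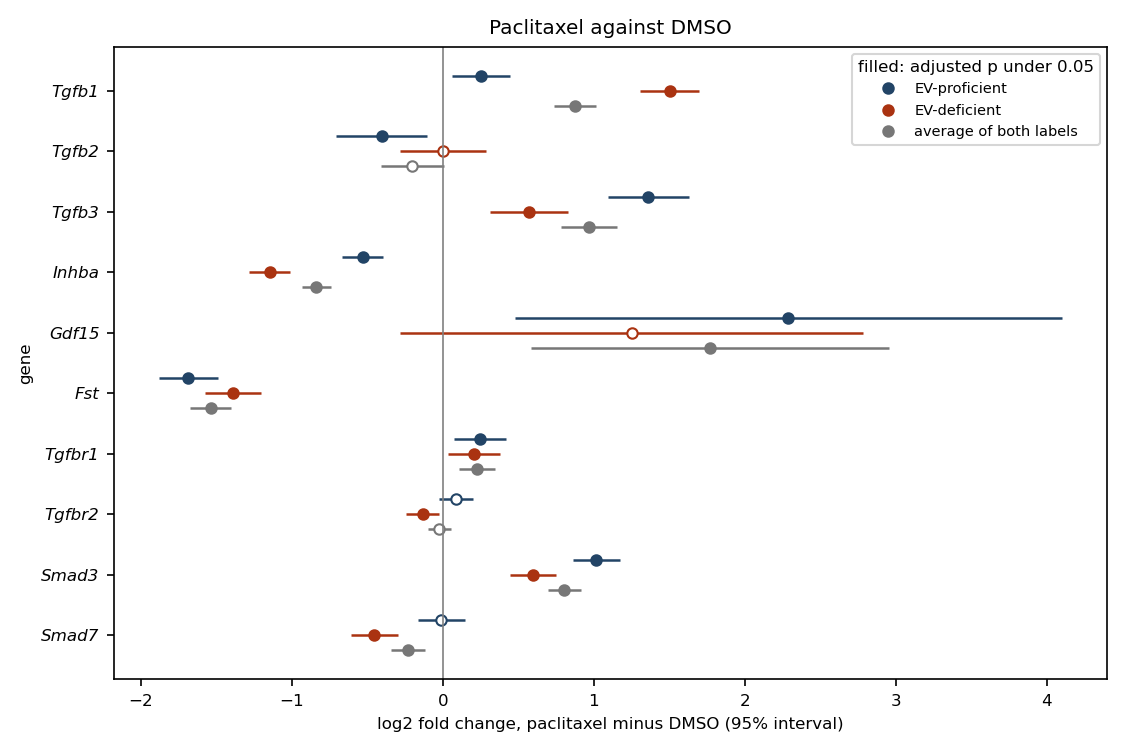
Log2 fold change of each gene, paclitaxel minus DMSO (x axis), in EV-proficient cells, in EV-deficient cells and averaged over both, with 95% intervals from edgeR (lines); filled points have an adjusted p under 0.05. Fst and Inhba lie left of 0 and Tgfb3 and Smad3 right of 0 in all 3, while the Tgfb1 points of the derivatives lie far apart at 0.25 and 1.50.

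Tgfb1 (ENSMUSG00000002603, chr7:25687002-25705077, GRCm38) encodes TGF-beta 1, the most widely expressed of the 3 isoforms. It was at 45.4, 53.5 and 58.4 CPM in the EV-proficient DMSO libraries and at 59.1, 61.7 and 66.5 in the EV-proficient paclitaxel libraries. In the cells labelled EV-deficient it was at 24.3, 24.1 and 28.1 CPM in DMSO and at 74.8, 78.1 and 63.7 under paclitaxel. The EV-deficient DMSO group thus lay below the other 3 groups without overlap, and both paclitaxel groups lay above their own controls. The log2 fold change was 1.50 ± 0.09 (SE; edgeR adjusted p 1.2e-11) in the cells labelled EV-deficient and 0.25 ± 0.09 (edgeR adjusted p 0.025) in those labelled EV-proficient, and 0.88 ± 0.07 averaged over both (edgeR adjusted p 1.2e-10). The small rise in the EV-proficient cells was not called when any of 6 libraries was left out: EV-proficient DMSO replicate 1 (0.16), EV-proficient paclitaxel replicates 1 (0.24), 2 (0.20) and 3 (0.17), and EV-deficient paclitaxel replicates 1 (0.20) and 2 (0.20).

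Tgfb3 (ENSMUSG00000021253, chr12:86056745-86079041), the isoform best known from palate development and wound repair, was at 5.41, 5.62 and 6.29 CPM in EV-proficient DMSO libraries and at 14.7, 14.2 and 15.6 after paclitaxel. In EV-deficient libraries it was at 7.55, 7.30 and 7.28 CPM in DMSO and at 13.2, 9.45 and 10.2 after paclitaxel. Treated libraries lay above untreated ones in both derivatives without overlap. The log2 fold changes were 1.36 ± 0.13 (SE; edgeR adjusted p 9.4e-09) and 0.57 ± 0.12 (edgeR adjusted p 4.1e-04), and 0.97 ± 0.09 averaged over both (edgeR adjusted p 3.5e-09).

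Tgfb2 (ENSMUSG00000039239, chr1:186622792-186705989) fell under the drug in one derivative. It went from 8.45, 7.87 and 7.61 to 5.67, 5.77 and 6.76 CPM in the EV-proficient cells (log2 -0.41 ± 0.14 SE, edgeR adjusted p 0.020). In the EV-deficient cells it was at 9.65, 9.82 and 8.31 CPM in DMSO and at 9.04, 7.53 and 11.2 under paclitaxel, and these groups overlapped (log2 0.00, 95% interval -0.29 to 0.29). Without EV-proficient DMSO replicate 1 the fall was -0.36 and no longer called. The effect averaged over both labels was -0.20 ± 0.10 and not called (edgeR adjusted p 0.078), but was called without EV-proficient paclitaxel replicate 3 (-0.26) or EV-deficient paclitaxel replicate 3 (-0.31). Exons of Tgfb2 share 124 bases with a gene on the opposite strand, and those of Tgfb3 163 and 257 bases with 2 such genes, 1 of which had at most 8 counts. Whether counting used strand was not stated.

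Taken as a sum of levels per kb, the 3 TGF-beta ligand transcripts were at 13.5 ± 1.4 (SD, n = 3) in EV-proficient DMSO, 8.83 ± 0.28 in EV-deficient DMSO, 17.8 ± 1.0 in EV-proficient paclitaxel and 19.2 ± 1.4 CPM per kb in EV-deficient paclitaxel libraries. Tgfb1 made up 77.0% ± 2.1, 57.1% ± 3.2, 69.5% ± 0.72 and 74.7% ± 3.9 of the sum in the same order. The Tgfb3 share came to 12.7% ± 0.53 in EV-proficient DMSO libraries and 24.6% ± 0.76 in EV-proficient paclitaxel libraries, and 24.7% ± 1.1 and 16.9% ± 2.5 in the EV-deficient ones. The Tgfb3 share thus was larger with the drug in one derivative and smaller in the other, although the Tgfb3 level rose in both. These shares and sums are descriptions with no test.

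**Figure D3:**
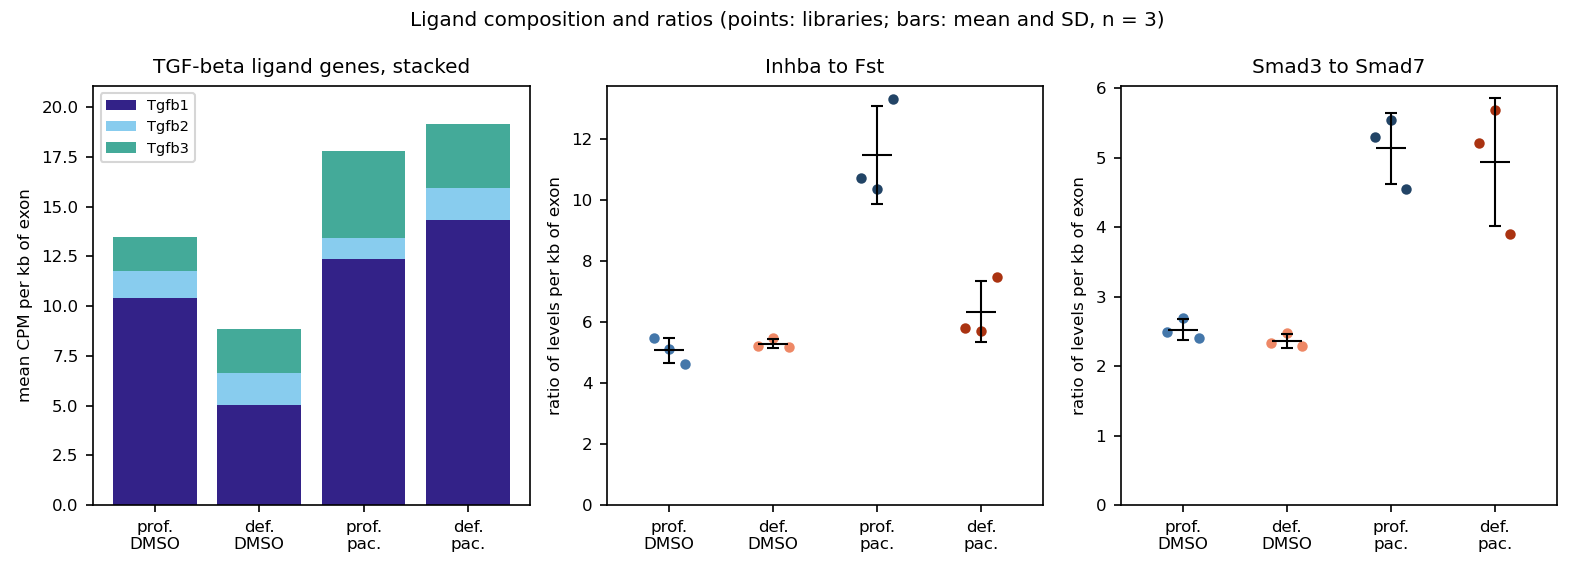
Left, mean CPM per kb of exon of Tgfb1, Tgfb2 and Tgfb3 stacked by group; middle and right, the ratio of Inhba to Fst and of Smad3 to Smad7 levels per kb in each library (points) with group mean and SD (bars, n = 3). The Inhba to Fst ratio is 10.4 to 13.3 in the EV-proficient paclitaxel libraries and at most 7.48 elsewhere, and the Smad3 to Smad7 ratio is higher in every paclitaxel library (3.91 or more) than in any DMSO library (2.69 or less).

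Inhba (ENSMUSG00000041324, chr13:16011851-16031621) encodes the beta A chain that forms activin A. It was at 310.4, 300.4 and 273 CPM in EV-proficient DMSO libraries and at 209.7, 190.5 and 211 after paclitaxel. In EV-deficient libraries it was at 379, 357 and 349 CPM in DMSO and at 165, 155 and 170.1 after paclitaxel. Every treated library lay below every untreated one. The log2 fold changes were -0.53 ± 0.06 (SE; edgeR adjusted p 3.6e-07) and -1.15 ± 0.06 (edgeR adjusted p 2.4e-12), or 1.45-fold and 2.21-fold lower. Averaged over both labels it was -0.84 ± 0.05 (edgeR adjusted p 6.5e-13).

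Fst (ENSMUSG00000021765, chr13:114452290-114458951), the follistatin gene, had the largest fall of the 10. It was at 40.8, 42.2 and 42.3 CPM in EV-proficient DMSO libraries and at 14.0, 13.2 and 11.4 after paclitaxel, and at 52.0, 46.8 and 48.4 in EV-deficient DMSO libraries and at 20.3, 19.6 and 16.3 after paclitaxel. Levels under the drug were 3.22-fold and 2.62-fold lower (log2 -1.69 ± 0.09 SE, edgeR adjusted p 3.3e-12, and -1.39 ± 0.09, edgeR adjusted p 1.7e-11), and the averaged effect was -1.54 ± 0.06 (edgeR adjusted p 1.3e-14). Exons of Fst share 115 bases with a gene on the opposite strand. The ligand gene and its inhibitor therefore fell together. Fst fell further than Inhba in the EV-proficient cells, where the ratio of their levels per kb was 5.07 ± 0.42 (SD, n = 3) in DMSO and 11.5 ± 1.6 under paclitaxel. In the EV-deficient cells the ratio was 5.29 ± 0.16 and 6.33 ± 1.0, a description with no test.

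Gdf15 (ENSMUSG00000038508, chr8:70629393-70632456) was barely detected. Its raw counts were 4, 0 and 4 in EV-proficient DMSO libraries, 6, 10 and 9 in EV-deficient DMSO, 2, 31 and 12 in EV-proficient paclitaxel and 21, 21 and 23 in EV-deficient paclitaxel libraries. EV-proficient paclitaxel replicate 1, with 2 counts, overlapped its controls, whereas the EV-deficient groups did not overlap. The gene passed the filter only through its paclitaxel libraries, the mean of which did not exceed 0.408 CPM in either group, so the p-values of the filtered fit are not evidence of a rise under the drug. The log2 fold change there was 2.29 ± 0.87 (SE; edgeR adjusted p 0.029) in the EV-proficient cells and 1.25 ± 0.74 (edgeR adjusted p 0.15) in the EV-deficient cells, and 1.77 ± 0.57 averaged over both (edgeR adjusted p 0.0093). Without the filter the values were 2.32 (edgeR adjusted p 0.013), 1.21 (0.18) and 1.77 (0.0025). The first call was lost without EV-proficient DMSO replicate 2 (1.69) or EV-proficient paclitaxel replicate 2 (1.67) or 3 (2.02), and with limma-voom (2.04), and the averaged call was lost without EV-proficient paclitaxel replicate 2 (1.45). With only the groups compared, the effect in the EV-deficient cells was called (1.26, edgeR adjusted p 0.035), whereas in the EV-proficient cells the gene did not pass the filter and had no value. Gfral, the GDF15 receptor gene, had a group mean of at most 0.0755 CPM and was not tested.

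The stress genes of the integrated stress and p53 responses, which are known to induce Gdf15, were described as a list. Of 10 such genes, all tested, 6 were higher and 2 lower under paclitaxel in the EV-proficient cells, and 2 were higher and 7 lower in the EV-deficient cells (4 lower with upper-quartile scaling), where 58.2% and 62.9% of all tested genes were called. The median log2 fold change of the list was 0.45 and -0.33, against 0.05 and 0.07 for all tested genes. With upper-quartile scaling the medians in the EV-deficient cells were -0.15 for the list and 0.26 for all tested genes. Averaged over the labels 4 were higher and 4 lower, with a median of 0.06. The interaction was called for 6 of the 10 genes, all of them negative, as it was for 40.7% of all tested genes (23.8% negative). Trib3, a pseudokinase induced by ATF4, was at 24.7 ± 1.2 CPM (SD, n = 3) in EV-proficient DMSO and 56.1 ± 8.1 in EV-proficient paclitaxel libraries, and at 32.1 ± 1.3 and 26.7 ± 4.2 in the EV-deficient ones. Chac1, another ATF4 target, rose by 1.02 ± 0.10 (log2, SE) in the former and fell by 0.50 on the log2 scale in the latter. Ddit3, which encodes the stress factor CHOP, rose in both (0.47 ± 0.10 and 0.64 ± 0.09), as did the immediate-early gene Egr1 (1.43 ± 0.09 and 0.85 ± 0.09). Ddit3 and Egr1 were the 2 genes of the list called higher in the EV-deficient cells. Atf4 itself fell in those cells from 417 ± 5 to 257 ± 16 CPM (SD, n = 3), by 0.70 on the log2 scale (edgeR adjusted p 1.4e-09). In the EV-proficient cells Atf4 was at 386 ± 18 CPM in DMSO and 358 ± 16 under paclitaxel.

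The receptor genes changed little. Tgfbr1 (ENSMUSG00000007613, chr4:47353222-47414931), the type I receptor, was at 46.1, 41.4 and 39.1 CPM in EV-proficient DMSO, 55.6, 44.4 and 49.9 in EV-proficient paclitaxel, 38.0, 40.5 and 41.4 in EV-deficient DMSO and 48.3, 44.3 and 45.8 in EV-deficient paclitaxel libraries. The EV-proficient groups overlapped and the EV-deficient ones did not. Its log2 fold changes were 0.24 ± 0.08 (SE; edgeR adjusted p 0.016) and 0.21 ± 0.08 (edgeR adjusted p 0.033), and 0.23 ± 0.06 averaged over both (edgeR adjusted p 0.0018). The call in the EV-proficient cells was lost without EV-proficient DMSO replicate 2 (0.23) or 3 (0.19) or EV-proficient paclitaxel replicate 1 (0.11) or 3 (0.21). That in the EV-deficient cells was lost without EV-proficient DMSO replicate 2 (0.19), EV-deficient DMSO replicate 1 (0.16), 2 (0.20) or 3 (0.22), or EV-deficient paclitaxel replicate 1 (0.16) or 3 (0.21), and without the filter on low counts (0.17), whereas the averaged call was made in every alternative run.

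Tgfbr2 (ENSMUSG00000032440, chr9:116084293-116175360), the type II receptor that binds the ligand, was at 371, 383 and 361 CPM in EV-proficient DMSO and 401, 389 and 395 in EV-proficient paclitaxel libraries. In EV-deficient libraries it was at 360.2, 350.3 and 354 CPM in DMSO and at 329, 311 and 329.7 after paclitaxel. Although treated and untreated libraries did not overlap in either derivative, the differences were small and went opposite ways. The log2 fold change was 0.09 ± 0.05 (SE; edgeR adjusted p 0.17) in the EV-proficient and -0.13 ± 0.05 (edgeR adjusted p 0.032) in the EV-deficient cells. Upper-quartile scaling, which moved the median of all tested genes by 0.06 in the EV-proficient and 0.18 in the EV-deficient cells, turned the latter to 0.05, not called, and the former to 0.15, called, so no direction is given for Tgfbr2 under the drug. The fall was also lost without EV-deficient DMSO replicate 1 (-0.14) or 3 (-0.15) or EV-deficient paclitaxel replicate 2 (-0.11), with median-of-ratios scaling (-0.12), with the 1 CPM filter (-0.07) and with only the groups compared (-0.12). The averaged effect was -0.02 ± 0.04 (edgeR adjusted p 0.60) and became 0.10, called, with upper-quartile scaling.

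Smad3 (ENSMUSG00000032402, chr9:63646767-63757994), the receptor-activated transducer shared by TGF-beta and activin, rose in both derivatives. It was at 131, 132 and 129.8 CPM in EV-proficient DMSO libraries and at 267, 279 and 247 after paclitaxel. In EV-deficient libraries it was at 143, 146 and 141 CPM in DMSO and at 211, 247 and 191 after paclitaxel. All 6 treated libraries lay above all 6 untreated ones. The rises were 2.02-fold (log2 1.01 ± 0.07 SE, edgeR adjusted p 2.1e-10) and 1.51-fold (0.60 ± 0.07, edgeR adjusted p 3.8e-07), and the averaged effect was 0.81 ± 0.05 (edgeR adjusted p 1.2e-11).

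Smad7 (ENSMUSG00000025880), the inhibitory SMAD that TGF-beta itself induces, was at 43.0, 39.9 and 44.1 CPM in EV-proficient DMSO and 41.0, 41.0 and 44.2 in EV-proficient paclitaxel libraries. In EV-deficient libraries it was at 50.1, 48.1 and 50.3 CPM in DMSO and at 33.0, 35.4 and 39.9 after paclitaxel. The EV-deficient libraries separated by treatment and the EV-proficient ones overlapped. Its log2 fold change was -0.45 ± 0.07 (SE; edgeR adjusted p 1.8e-05) in the EV-deficient cells and -0.01 in the EV-proficient cells (95% interval -0.17 to 0.15). The averaged effect was -0.23 ± 0.05 (edgeR adjusted p 5.9e-04), or -0.11 and not called with upper-quartile scaling. The ratio of Smad3 to Smad7 levels per kb came to 2.53 ± 0.15 in EV-proficient DMSO libraries (SD, n = 3) and 5.14 ± 0.52 in EV-proficient paclitaxel libraries, and 2.36 ± 0.10 and 4.94 ± 0.92 in the EV-deficient ones.

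The derivatives were next compared within each treatment. Under DMSO, 3 members differed, Inhba and Smad7 higher and Tgfb1 lower in the libraries labelled EV-deficient, where 23.0% of all tested genes were called (12.4% higher, 10.6% lower). Under paclitaxel 7 differed, Tgfb2 and Fst higher and Tgfb3, Inhba, Tgfbr2, Smad3 and Smad7 lower, where 37.8% of all genes were called (16.0% higher, 21.8% lower). Under each treatment 7 members did not overlap between the derivatives, against 43.3% and 44.1% of all tested genes. In DMSO, Tgfb1 stood 2.06-fold lower in EV-deficient than in EV-proficient libraries (log2 -1.04 ± 0.09 SE, edgeR adjusted p 3.4e-08). Under paclitaxel its difference was 0.21 ± 0.09 and not called (edgeR adjusted p 0.076), and the groups overlapped. It was called with upper-quartile scaling (0.31, adjusted p 0.014), with the 1 CPM filter (0.25, adjusted p 0.033), with DESeq2 (0.23, adjusted p 0.048) and without EV-deficient paclitaxel replicate 3 (0.29, adjusted p 0.017). Inhba was higher in EV-deficient libraries in DMSO (0.30 ± 0.06, edgeR adjusted p 0.0016) and lower under paclitaxel (-0.32 ± 0.06, edgeR adjusted p 5e-04). Smad7 likewise was higher in DMSO (0.22 ± 0.08, edgeR adjusted p 0.034) and lower under paclitaxel (-0.22 ± 0.08, edgeR adjusted p 0.027). Its DMSO call was lost in 10 of the 12 fits with a library left out (0.18 to 0.26 over all 12), the exceptions being those without EV-proficient DMSO replicate 3 and EV-deficient paclitaxel replicate 3. The DMSO call was also lost with median-of-ratios (0.20, adjusted p 0.059) and upper-quartile scaling (0.20, adjusted p 0.074). The paclitaxel call was lost with upper-quartile scaling (-0.12, adjusted p 0.22), the 1 CPM filter (-0.18, adjusted p 0.062) and only the groups compared (-0.19, adjusted p 0.13), and without EV-proficient paclitaxel replicate 3 (-0.19) or EV-deficient paclitaxel replicate 1 (-0.16) or 2 (-0.20).

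**Figure D4:**
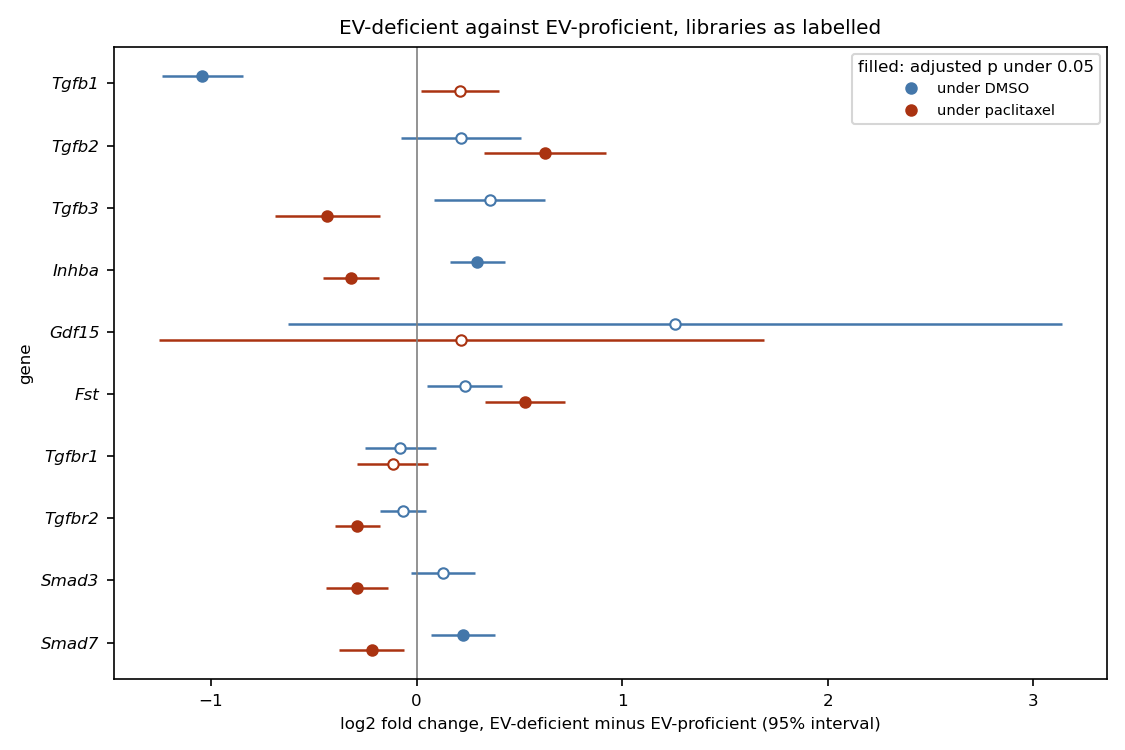
Log2 difference of each gene between EV-deficient and EV-proficient libraries as labelled (x axis), under DMSO and under paclitaxel, with 95% intervals from edgeR (lines); filled points have an adjusted p under 0.05. Tgfb1 under DMSO (-1.04) stands alone on the left, Inhba and Smad7 lie right of 0 under DMSO and left of 0 under paclitaxel, and the Gdf15 intervals are the widest.

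Fst under paclitaxel was 1.44-fold higher in the libraries labelled EV-deficient (log2 0.53 ± 0.09 SE, edgeR adjusted p 1.3e-04), against 0.23 ± 0.09 and no call in DMSO (edgeR adjusted p 0.058). The DMSO difference was called without the filter on low counts (0.28), with limma-voom (0.23), and with only the groups compared (0.20). Tgfb2 was also higher there under paclitaxel (0.62 ± 0.14, edgeR adjusted p 0.0015). Lower under paclitaxel were Tgfb3 (-0.43 ± 0.12, edgeR adjusted p 0.0078), Tgfbr2 (-0.29 ± 0.05, edgeR adjusted p 2e-04) and Smad3 (-0.29 ± 0.07, edgeR adjusted p 0.0035). For these last 3 the DMSO differences were 0.36, -0.07 and 0.13, none of them called. That of Tgfb3 was called without the filter (0.40), with the 1 CPM filter (0.34) and with only the groups compared (0.32). Tgfbr1 and Gdf15 were called under neither treatment.

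Whether the response to paclitaxel differed between the derivatives was tested as the interaction, the drug effect in EV-deficient minus that in EV-proficient cells. It was called for 6 members, 1 positive and 5 negative, where 40.7% of all tested genes were called (16.9% positive, 23.8% negative). Tgfb1 was the positive one at 1.25 ± 0.13 (log2, SE; edgeR adjusted p 1.3e-07). The negative ones were Tgfb3 (-0.79 ± 0.18, edgeR adjusted p 0.0011), Inhba (-0.62 ± 0.09, edgeR adjusted p 1.2e-05), Smad7 (-0.44 ± 0.11, edgeR adjusted p 0.0019), Smad3 (-0.42 ± 0.10, edgeR adjusted p 0.0026) and Tgfbr2 (-0.22 ± 0.08, edgeR adjusted p 0.022). The Tgfbr2 call was lost with median-of-ratios (-0.18) and upper-quartile scaling (-0.10) and without any of 5 paclitaxel libraries: EV-proficient replicates 1 (-0.17), 2 (-0.19) and 3 (-0.19) and EV-deficient replicates 1 (-0.20) and 2 (-0.15). The Fst interaction was 0.29 ± 0.13 (edgeR adjusted p 0.072) and that of Tgfb2 0.41 ± 0.20 (edgeR adjusted p 0.11). The Fst interaction was called with median-of-ratios (0.34, adjusted p 0.040) and upper-quartile scaling (0.42, adjusted p 0.011), the 1 CPM filter (0.35, adjusted p 0.026) and DESeq2 (0.34, adjusted p 0.032), and without EV-proficient paclitaxel replicate 1 (0.39) or EV-deficient paclitaxel replicate 3 (0.42). That of Tgfb2 was called with upper-quartile scaling (0.53, adjusted p 0.041) and without EV-deficient paclitaxel replicate 2 (0.58). Tgfbr1 had an interaction of -0.04 (95% interval -0.28 to 0.21).

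The other genes of these pathways were described from lists that overlap in part, against 58.2% and 62.9% of all genes called in the EV-proficient and EV-deficient cells and all-gene medians of 0.05 and 0.07 (log2). For the effect averaged over the labels 68.4% of all genes were called, with a median of 0.07. As with Gdf15, tested genes that did not reach the filter's level in 3 libraries of each treatment are named and left out of the counts and medians of their list. Of all genes that did reach it, 62.6%, 66.2% and 71.2% were called in the 3 comparisons, with medians of -0.01, -0.03 and -0.01. The level was counted over both derivatives, so a gene near the floor in the controls of a derivative can remain. Acvrl1, Smad6 and Inhbb, for example, had means of 0.0421, 0.160 and 0.172 CPM in EV-proficient DMSO libraries. Under paclitaxel these were 0.931, 0.989 and 1.68 CPM. Counts of higher genes in the EV-proficient cells can hold such genes. The latency and activation list holds binding proteins of the LTBP family and integrins, proteases and matrix proteins tied to the storage and release of TGF-beta. Of its 12 genes, all tested, 6 were higher and 1 lower under paclitaxel in the EV-proficient cells and 7 were higher and 3 lower in the EV-deficient cells, with medians of 0.61 and 0.34 (log2). Averaged over the labels 7 were higher and 3 lower. Ltbp2, an elastic-fibre protein that belongs to the LTBP family by structure but, unlike its relatives, does not bind latent TGF-beta, went from 4.38 ± 0.23 to 65.3 ± 10.7 CPM (SD, n = 3) in the EV-proficient cells, and from 20.6 ± 0.92 to 31.1 ± 4.0 in the EV-deficient ones. Ltbp4 rose by 1.19 ± 0.10 and 1.37 ± 0.10 (log2, SE) and Ltbp3 by 0.96 ± 0.09 and 0.40 ± 0.09. Ltbp1 went the other way in the EV-deficient cells, from 211 ± 5 to 138 ± 5 CPM (SD, n = 3), a fall of 0.62 on the log2 scale (edgeR adjusted p 3.6e-09). In the EV-proficient cells Ltbp1 was at 152 ± 3 CPM in DMSO and 161 ± 6 under paclitaxel. Thbs1, an abundant matrix protein that can release TGF-beta from latency, fell from 1451 ± 57 to 579.8 ± 26.3 CPM in the EV-proficient cells and rose from 913 ± 12 to 1114 ± 70 in the EV-deficient cells. Its averaged effect was -0.52 ± 0.04 (edgeR adjusted p 3.4e-10). Itgav, the alpha chain of the integrins that activate TGF-beta, rose in the EV-deficient cells by 0.82 ± 0.07 and had a value of -0.08 ± 0.06 in the others.

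Among 9 other ligands of the superfamily, 7 were tested, of which 5 were higher and 2 lower under paclitaxel in the EV-proficient and 2 higher and 3 lower in the EV-deficient cells, with medians of 1.82 and 0.44. Averaged over the labels 5 were higher and 2 lower. Bmp7, a bone morphogenetic protein (BMP) ligand, was at 6.41 ± 0.35 CPM (SD, n = 3) in EV-proficient DMSO, 61.8 ± 1.4 in EV-deficient DMSO, 97.1 ± 6.4 in EV-proficient paclitaxel and 8.33 ± 3.1 CPM in EV-deficient paclitaxel libraries. Its log2 fold changes under the drug were 3.92 and -2.91, and 0.51 ± 0.11 averaged over both (edgeR adjusted p 2.2e-04). Its high groups were thus the low groups of the dngfr row. Bmp2 had the reverse order, at 13.0 ± 1.5, 4.68 ± 0.66, 4.10 ± 0.35 and 9.42 ± 0.37 CPM. The averaged effect for Bmp2 was -0.33 ± 0.09 (edgeR adjusted p 0.0043), or -0.21 and not called with upper-quartile scaling. Gdf11, a ligand close to myostatin, fell in both derivatives, by 0.61 and 0.73 on the log2 scale.

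**Figure D5:**
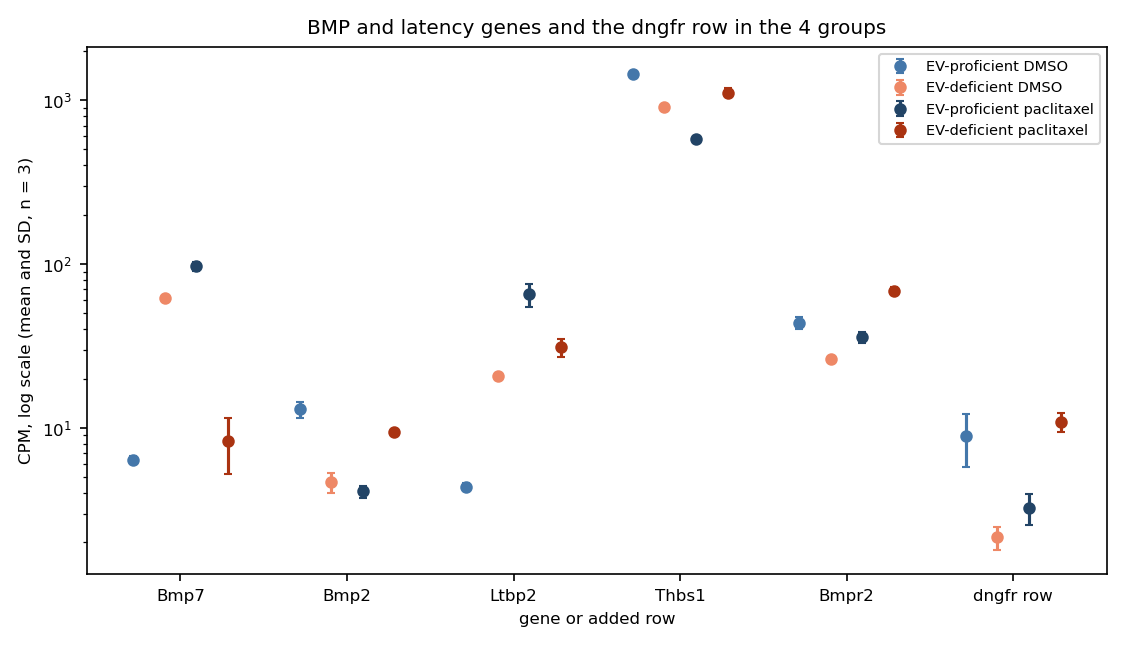
Mean CPM and SD (n = 3, log axis) of Bmp7, Bmp2, Ltbp2, Thbs1, Bmpr2 and the added dngfr row in the 4 groups. Bmp7 is high in EV-deficient DMSO (61.8) and EV-proficient paclitaxel libraries (97.1), where the dngfr row is low, and Bmp2, Thbs1 and Bmpr2 are lower in those 2 groups than in EV-deficient paclitaxel libraries.

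Of 13 other receptors and coreceptors 11 were tested, of which Acvr1c passed the filter through paclitaxel libraries only and Bmpr1b reached the level in 6 DMSO libraries and 2 paclitaxel libraries. Of the other 9, 4 were higher and 2 lower in the EV-proficient and 3 higher and 1 lower in the EV-deficient cells, with medians of 0.39 and 0.05. In the averaged effect 5 were higher and 1 lower. Acvr1b, the type I receptor for activin, rose by 1.03 ± 0.12 and 0.52 ± 0.11 (log2, SE). Acvr2b, a type II receptor for activin, was higher in the EV-proficient cells (0.94 ± 0.19) and had a value of -0.13 ± 0.19 in the others. Bmpr2, the type II receptor for BMPs, fell from 43.9 ± 3.7 to 35.8 ± 2.8 CPM (SD, n = 3) in the EV-proficient and rose from 26.4 ± 0.72 to 68.5 ± 4.1 in the EV-deficient cells. Its averaged effect was 0.54 ± 0.06 (edgeR adjusted p 1.6e-08). Acvr1, a type I receptor for BMPs, fell in the EV-proficient cells by 0.59 on the log2 scale. In the EV-deficient cells its value was -0.25 ± 0.06, called, and -0.07 with upper-quartile scaling, not called.

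The other SMADs numbered 6, all tested. Under paclitaxel in the EV-proficient cells 4 were higher and 1 lower, and in the EV-deficient cells 1 was higher and 3 lower, a split that became 3 higher and 0 lower with upper-quartile scaling. The medians were 0.30 and -0.03. The averaged effect was higher for 2 and lower for 1, and with upper-quartile scaling Smad1 (0.21) and Smad5 (0.19) were called higher as well. Smad2, the partner of Smad3 in TGF-beta and activin signalling, was at 94.4 ± 4.5 CPM (SD, n = 3) in EV-proficient DMSO and 68.3 ± 4.1 in EV-proficient paclitaxel libraries, a fall of 0.47 on the log2 scale (edgeR adjusted p 1.9e-06). In the EV-deficient cells it was at 84.8 ± 3.5 and 76.1 ± 2.0 CPM (-0.16, edgeR adjusted p 0.038, or 0.03 and not called with upper-quartile scaling). Smad2 and Smad3 thus moved in opposite directions in the EV-proficient cells. Smad4, the shared partner, rose there by 0.26 ± 0.07.

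All 15 inhibitors of the pathways were tested, of which Dcn reached the level in 2 DMSO libraries and 6 paclitaxel libraries. Of the other 14, 7 were higher and 4 lower in the EV-proficient cells and 4 were higher and 5 lower in the EV-deficient cells (8 and 3 with upper-quartile scaling and Dcn counted), with medians of 0.08 and 0.01. The averaged effect was higher for 7 and lower for 5. Skil, which encodes the SMAD corepressor SnoN, rose in both (0.60 ± 0.06 and 0.72 ± 0.06, log2, SE). Tgif1, another corepressor, rose by 0.89 ± 0.09 and 0.21 ± 0.09. Smurf1, a ubiquitin ligase that works with Smad7, fell from 352 ± 12 to 243 ± 19 CPM (SD, n = 3) and from 317 ± 6 to 243 ± 9.

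The list of 22 TGF-beta target genes held 21 tested genes, of which Acta2 passed the filter through DMSO libraries only and Postn through 1 DMSO and 2 paclitaxel libraries. Of the other 19, 11 were higher and 4 lower under paclitaxel in the EV-proficient cells, and 11 higher and 4 lower in the EV-deficient cells, with medians of 0.59 and 0.33 (log2). Averaged over the labels 12 were higher and 3 lower. The targets did not move as one. Cdkn2b, the cell-cycle inhibitor induced by TGF-beta, rose in both derivatives, from 15.0 ± 2.3 to 47.9 ± 0.68 and from 16.4 ± 1.8 to 34.2 ± 3.4 CPM (SD, n = 3). Junb rose by 1.47 ± 0.18 and 0.78 ± 0.18 (log2, SE). Cyr61, a matrix protein gene also driven by YAP, fell by 1.07 and 1.08 on the log2 scale.

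Among 8 BMP target genes, all tested, 3 were higher and 2 lower in the EV-proficient and 2 higher and 3 lower in the EV-deficient cells, with medians of 0.09 and 0.22. In the averaged effect 4 were higher and 3 lower (Id2, at -0.20, was -0.08 and not called with upper-quartile scaling). The Id genes encode inhibitors of helix-loop-helix factors and are direct targets of BMP signalling. Id1 fell in both derivatives, from 21.8 ± 5.4 to 8.65 ± 0.49 and from 27.4 ± 4.4 to 15.8 ± 0.84 CPM (SD, n = 3). Id3 fell in the EV-proficient cells by 0.83 on the log2 scale and had a value of -0.10 ± 0.08 in the others. Id2 fell in the EV-deficient cells by 0.44, with a value of 0.04 ± 0.08 in the EV-proficient cells.

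Genes of the most similar pattern were sought for Inhba, Fst and Gdf15 by the Pearson correlation of log2 CPM over the 12 libraries, which share their depth and their 4 groups, among 9925 genes. For Inhba the closest were Smarcc1 (0.995), Cdv3 (0.994) and Usp39 (0.994), and 2022 genes exceeded 0.9. For Fst they were Hsph1 (0.985), Pnn (0.983) and Gnl3 (0.982), with 984 genes above 0.9. For Gdf15 the closest were Serac1 (0.80), Prdm9 (0.78) and Tob2 (0.77), and 0 genes exceeded 0.9. Among the members themselves, Smad3 ran with Tgfb3 (0.93) and against Fst (-0.93) over the same 12 libraries.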

How the data were processed

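Poly(A) RNA from 12 libraries was sequenced after stranded library preparation, per the labels' protocols. The authors deposited whole read counts per gene, not normalized; the submitters' processing notes list STAR 2.5.0a and GRCm38, and the counting program and its strand setting are not given in the sources used here. The members, lists and comparisons were chosen with earlier results of these data known.

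The analysis used edgeR 4.0.16 in R 4.3.3. Of 35104 genes with any count, filterByExpr (minimum count 10) kept 18108. Trimmed-mean-of-M-values factors ran from 0.890 to 1.15, and 1 quasi-likelihood model with 4 group means covered all 12 libraries. The added gfp and dngfr rows stayed out of library sizes and tests. Rows lacking a symbol took up to 0.102% of the counts in a library. Adjustment was by Benjamini-Hochberg over all tested genes (threshold 0.05), the SE is the fold change over the square root of F, and CPM use scaled library sizes. Lengths are GENCODE M21 exon unions on GRCm38.

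All 10 members are named in every comparison. Of each list, at most 3 genes per comparison were named: the largest absolute log2 fold changes among called genes with a mean of at least 5 CPM and groups that did not overlap (no such condition for the interaction and the average). A gene that met this rule is not reported here. Alternatives tried were upper-quartile or median-of-ratios scaling, no filter or 1 CPM in 3 libraries, DESeq2 1.42.0, limma-voom (limma 3.58.1), a block for the replicate number, a fit of the compared groups alone, and each library left out. The scalings of the lists, and the counts without genes that did not reach the filter's level in 3 libraries of each treatment, were added after seeing the data. Replicate pairs differed beyond sampling noise (chi-square per degree of freedom 4.49 to 31.3). The test was tested on simulated counts over 17348 genes, for paclitaxel against DMSO in EV-deficient cells: edgeR recovered 63.6% of 66 genes changed 1.5-fold, 90.9% of 66 changed 2-fold and 98.4% of 63 changed 4-fold. Only these few genes were changed there and every gene had the same dispersion, whereas 62.9% of tested genes were called in the data. The shares recovered therefore need not hold for the data. Promoter windows came from RefSeq. Floors and totals cover counting error only.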

Additional observations from a re-analysis of the deposited data

Results flagged for a closer look

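The paclitaxel effect differed between the derivatives, by the interaction test of edgeR, for 6 of the 10 genes: Tgfb1 (log2 difference 1.25), Tgfb3 (-0.79), Inhba (-0.62), Smad7 (-0.44), Smad3 (-0.42) and Tgfbr2 (-0.22). Each is the effect in EV-deficient minus that in EV-proficient cells, and 40.7% of all tested genes had a called interaction. The Tgfbr2 call was lost with median-of-ratios (-0.18, adjusted p 0.063) and upper-quartile scaling (-0.10, adjusted p 0.28) and without any of 5 paclitaxel libraries (-0.20 to -0.15). For Tgfb3, Inhba and Smad3 the effect had the same sign in both derivatives and differed in size, and Tgfb1 rose in both. The dngfr row, which no comparison used, had at least 93 counts in every library, against 0 for the other added row, gfp, and its level paired the groups across the EV labels.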

How the results depend on the processing

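Of 1172 recomputed member values, 1066 kept their direction and their side of the threshold, 56 lost a call, 23 gained one and 27 changed sign, and 36 of the 60 member results kept both under every alternative. Sign changes were of values that had not been called, except for Tgfbr2 under paclitaxel in EV-deficient cells (0.0494 with upper-quartile scaling). With upper-quartile scaling, Smad7 in EV-proficient cells became 0.0498, the Tgfbr1 interaction 0.0864 and the averaged Tgfbr2 effect 0.10. With 1 CPM in 3 libraries these 3 were 0.0019, 0.0145 and 0.0149, and the Tgfbr1 interaction was 0.00658 with median-of-ratios scaling and 0.00654 with DESeq2. Without the filter, Smad7 in EV-proficient cells was 0.018 and Tgfb2 in EV-deficient cells -0.0369. Over the fits with a library left out, ranges were -0.0839 to 0.0181 for Smad7 in EV-proficient cells, -0.17 to 0.13 for Tgfb2 in EV-deficient cells, -0.12 to 0.0885 for the Tgfbr1 interaction, and -0.35 to 0.79 for Gdf15 between the labels under paclitaxel. The cause was not tested.

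Members called for paclitaxel in EV-proficient cells numbered 8 with Gdf15, and 5 to 8 with a library left out (5 without EV-proficient paclitaxel replicate 3, the shallowest library). Between the labels under DMSO they were 3, or 5 without the filter and 5 with only the groups compared, but 2 with median-of-ratios or upper-quartile scaling and 2 to 3 with a library left out. Upper-quartile scaling moved the all-gene median by 0.12 for the interaction and the averaged effect, and by 0.18 for paclitaxel in EV-deficient cells. There, 63.4% of the called genes were higher, against 51.5% in the main test. Replicate numbers did not pair the samples: correlations of same-numbered deviations were -0.081 to 0.097, and each sample correlated best with its own number only for paclitaxel in EV-deficient cells. With the replicate number as a block, the Gdf15 call in EV-proficient cells was lost (2.10, adjusted p 0.055), the Fst difference under DMSO was called (0.23, adjusted p 0.044), and Tgfb2 in EV-deficient cells was -0.00928. Gdf15 could not be tested with the 1 CPM filter, nor with only the groups compared for paclitaxel in EV-proficient cells and for the labels under DMSO, and its counts of 0 to 31 limit what can be said of it.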
